A study of Mus musculus with 6 samples.

Results

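The phagocyte NADPH oxidase was followed here through 6 genes, *Cybb*, *Cyba*, *Ncf1*, *Ncf4*, *Rac1* and *Rac2*, which were taken by name from a table of 54532 genes. All 6 were found, and all 6 passed the filter on low counts together with 14169 genes in all. In *VC Phf6,RE9a* leukemia cells *Cybb* and *Ncf1* were several-fold higher than in *WT Phf6,RE9a* leukemia cells, while *Ncf4*, *Cyba* and *Rac1* were lower. *Rac2* did not pass the test.

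RNA was sequenced from GFP+ leukemia cells sorted from mouse bone marrow, with 3 libraries of *WT Phf6,RE9a* (WT below, replicates 1, 2 and 3) and 3 of *VC Phf6,RE9a* (VC below, replicates 11, 12 and 13). Both groups carry RUNX1-ETO9a (RE9a), a short form of the t(8;21) fusion protein, brought into fetal liver cells of male mice by a retrovirus that also encodes GFP and then passed through male recipients. In both groups the *Phf6* allele is floxed (*Phf6* fl/y). *VC Phf6,RE9a* cells also carry *Vav1-Cre*, which is active in blood cells and deletes the allele throughout the blood system, whereas *WT Phf6,RE9a* cells have no Cre, so the effect of Cre itself cannot be told apart from the loss of *Phf6*. The GFP gate marks cells that took up the virus and does not select a stage of maturation. Whether the libraries of a group came from separate mice is not in the labels, so the p-values measure only the spread between these libraries.

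The oxidase is the enzyme with which neutrophils and macrophages make superoxide. Its electron-carrying core is a membrane pair, gp91phox (*Cybb*) and p22phox (*Cyba*), which stabilise each other. On stimulation the cytosolic subunits p47phox (*Ncf1*) and p40phox (*Ncf4*) move to this core together with a GTP-bound RAC protein, of which *Rac2* is the blood form and *Rac1* the general form. *Cybb* and *Ncf1* are well known to be switched on late in myeloid maturation, and inherited loss of *CYBB*, *CYBA*, *NCF1* or *NCF4* causes chronic granulomatous disease.

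The promoters of the membrane pair and of *Ncf1* are shown because only these 3 of the 6 genes had a promoter entry in the reference used. Promoter sequences in the RefSeq table (GRCm38.p6) cover 250 bases before and 50 bases after the start that RefSeq gives for a gene. They were found for 3 of the 6 genes, *Cybb* (chrX:9469275-9469574, minus strand), *Cyba* (chr8:122432891-122433190, minus strand) and *Ncf1* (chr5:134229576-134229875, minus strand). *Ncf4*, *Rac1* and *Rac2* had no entry. The *Cybb* window lies inside the gene as the deposited table bounds it, so it belongs to a start downstream of the outermost annotated one, and positions below count from that RefSeq start. Each is written 5′ to 3′ along its gene, with matches to a searched motif in capitals.
Cybb: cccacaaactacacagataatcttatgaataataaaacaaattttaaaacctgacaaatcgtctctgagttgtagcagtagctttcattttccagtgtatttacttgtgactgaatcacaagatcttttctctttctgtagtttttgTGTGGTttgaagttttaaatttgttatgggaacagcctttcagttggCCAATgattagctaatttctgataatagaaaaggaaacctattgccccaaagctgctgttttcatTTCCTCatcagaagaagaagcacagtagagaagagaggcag
Cyba: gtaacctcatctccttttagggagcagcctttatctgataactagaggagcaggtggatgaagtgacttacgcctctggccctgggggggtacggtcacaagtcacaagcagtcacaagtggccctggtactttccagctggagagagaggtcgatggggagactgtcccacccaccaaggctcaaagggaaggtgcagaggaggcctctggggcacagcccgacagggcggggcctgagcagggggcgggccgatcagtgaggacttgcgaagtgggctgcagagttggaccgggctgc
Ncf1: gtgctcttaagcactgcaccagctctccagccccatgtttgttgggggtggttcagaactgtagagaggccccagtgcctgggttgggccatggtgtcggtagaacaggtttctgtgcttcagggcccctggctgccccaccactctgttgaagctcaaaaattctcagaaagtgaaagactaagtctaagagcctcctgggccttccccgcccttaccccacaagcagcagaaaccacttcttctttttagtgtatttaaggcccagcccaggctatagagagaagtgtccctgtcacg
Motifs named for 5 kinds of factor were searched on both strands, GAGGAA (the core bound by PU.1), TGTGGT (RUNX proteins), CCAAT (the CCAAT box), TTGCNNAA (C/EBP proteins) and GGANTTTCC (part of an NF-κB site). The *Cybb* promoter held GAGGAA once, on the strand opposite the gene, so that it reads TTCCTC above. This match begins 10 bases into the transcript, counting the start base as 1. It also held TGTGGT on the gene's strand with its first base at -103 and CCAAT on the same strand with its first base at -56. The *Cyba* and *Ncf1* windows held none of the 5 motifs. Of 32851 promoters of this length, 28.3% held GAGGAA, 16.8% TGTGGT, 37.4% CCAAT, 10.8% TTGCNNAA and 1.25% GGANTTTCC, so the matches in *Cybb* are of common kinds. GC content was 35.3% in the *Cybb* window, 54% in that of *Ncf1* and 60.7% in that of *Cyba*.

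*Rac1* and *Rac2* encode close relatives, and a stretch of their coding sequence is shown because it bears on whether reads can be told apart. Coding bases 361 to 420, within a coding exon of each gene, differ at 3 positions, which are in capitals. *Rac1* lies there at chr5:143507355-143507414 and *Rac2* at chr15:78564891-78564950, both on the minus strand of GRCm38.
Rac1: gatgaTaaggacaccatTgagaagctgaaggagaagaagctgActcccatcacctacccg
Rac2: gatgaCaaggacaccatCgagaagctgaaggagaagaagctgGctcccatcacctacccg
Over the 579 coding bases the genes were 77% identical, and the longest identical run was 29 bases. The annotated transcripts of *Rac1*, *Rac2* and *Rac3* shared 0 stretches of 31 bases. Reads longer than that therefore separate the 3 paralogs, apart from sequencing errors.

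Total counts per library lay between 15675358 and 16817994, and counting noise alone did not account for the differences between libraries of a group (chi-square per gene 11.8 to 46.4). *Phf6* itself was read at 67.8, 56.1 and 69.1 CPM (counts scaled to library size, by TMM) in WT cells and at 22.9, 18.3 and 19.7 CPM in VC cells (log2 fold change -1.66 with a standard error of 0.13, adjusted p = 9.32e-05 from edgeR). The labelled tissue was checked with marker genes. The 4 pan-leukocyte markers summed to 2843 to 3107 CPM in WT and 2145 to 2518 CPM in VC cells, most of it *Laptm5* and *Coro1a*, and *Laptm5* and *Vav1* were called lower. *Ptprc*, which encodes the pan-leukocyte antigen CD45, was at only 12.2 to 32.5 CPM in WT and 18.2 to 56.7 CPM in VC cells and was not called, while 7 T cell markers together stayed under 4 CPM in every library. Markers of mast cells and basophils summed to 15215 to 24767 CPM in WT and 4092 to 4448 CPM in VC cells, and 7 of these 8 genes were lower.

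Between the groups, edgeR's quasi-likelihood test called 44.2% of all genes tested at an adjusted p under 0.05, 21.5% higher and 22.7% lower in VC cells. The 6 oxidase genes are read against these shares. Of the 6, 2 were higher, 3 were lower and 1 was not called. In TMM-scaled CPM the libraries of the groups did not overlap for 6 of 6, against 57.3% of all genes tested. For *Rac2* this depends on the scaling, since per plain total count VC replicate 11 lies above WT replicate 2. With so many genes called, a call for any of them is frequent, and the sizes and directions below carry more than the count.

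**Figure D1:**
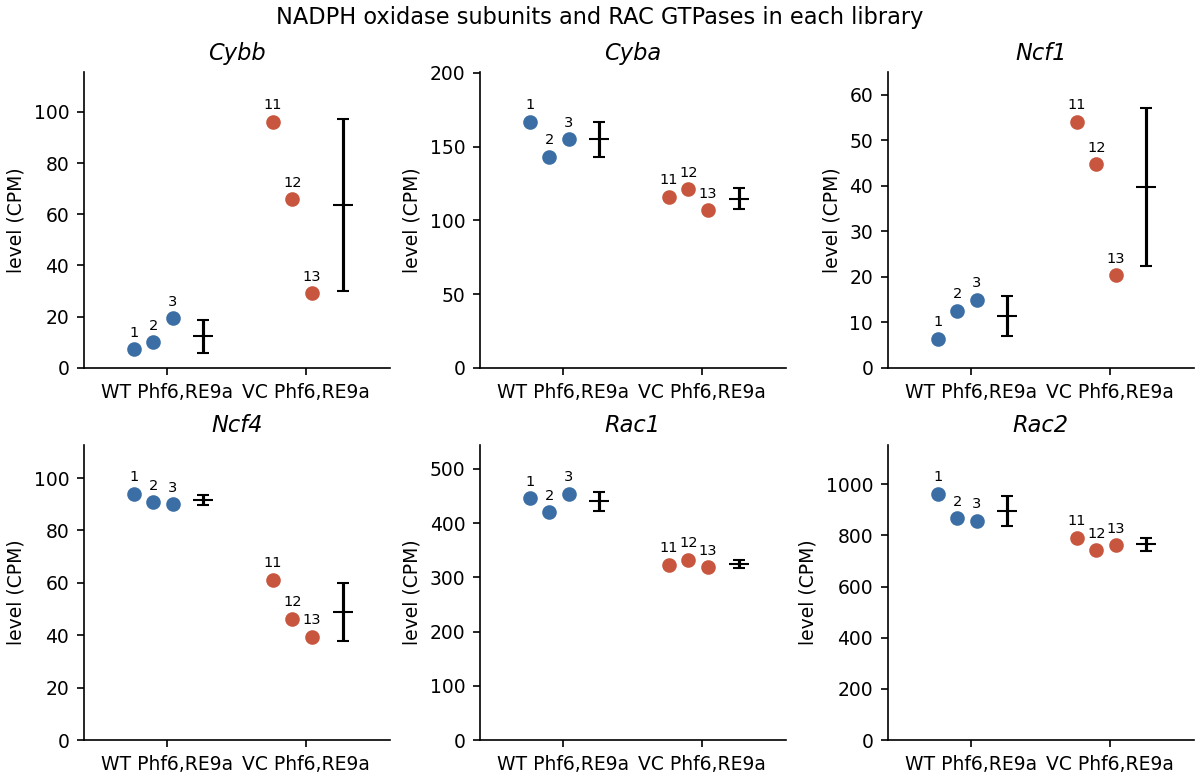
Level of each gene in CPM (linear axes from 0) in the 3 *WT Phf6,RE9a* libraries (blue) and the 3 *VC Phf6,RE9a* libraries (red), numbered by replicate, with black bars for the mean ± SD. *Cybb* and *Ncf1* are higher in *VC Phf6,RE9a* cells with wide spread, *Cyba*, *Ncf4* and *Rac1* are lower, and *Rac2*, which was not called, has its nearest libraries only 1.08-fold apart.

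Of the membrane pair, *Cybb* (ENSMUSG00000015340, chromosome X, 9435252 to 9487771, GRCm38) encodes the subunit that carries electrons from NADPH to oxygen. It was read 113, 149 and 321 times in WT cells and 1630, 1130 and 489 times in VC cells. The groups did not overlap, but they came close, since VC replicate 13 was only 1.5-fold above WT replicate 3 in CPM. Within VC cells the highest library was 3.31-fold above the lowest. The mean rose from 12.3 ± 6.33 CPM to 63.7 ± 33.6 CPM (SD, n = 3), which is 5.17-fold (log2 fold change 2.37 with a standard error of 0.49, 95% interval 1.23 to 3.50, adjusted p = 0.00627 from edgeR). This log2 fold change was larger than that of 96.3% of all genes tested.

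*Cyba* (ENSMUSG00000006519, chromosome 8, 122424776 to 122432930) encodes p22phox, the partner that *Cybb* protein needs for stability and that docks p47phox. Its counts were 2568, 2101 and 2556 in WT cells and 1964, 2082 and 1805 in VC cells. In CPM every VC library lay under every WT library, and the spread within each group was small. The level fell from 155 ± 12.1 to 115 ± 7.1 CPM (SD, n = 3), a 1.35-fold decrease (log2 fold change -0.43 with a standard error of 0.092, adjusted p = 0.00733 from edgeR). The partners of the membrane core thus moved in opposite directions in the same libraries.

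Among the cytosolic subunits, *Ncf1* (ENSMUSG00000015950, chromosome 5, 134220053 to 134229625) encodes p47phox, the organizer whose phosphorylation starts assembly. It had 99, 184 and 248 counts in WT cells and 916, 767 and 344 counts in VC cells. As with *Cybb*, replicate 13 was the lowest of the VC libraries and replicate 3 the highest of the WT libraries, 1.36-fold apart in CPM. The level rose from 11.3 ± 4.41 to 39.7 ± 17.4 CPM (SD, n = 3), or 3.51-fold (log2 fold change 1.81 with a standard error of 0.41, 95% interval 0.86 to 2.76, adjusted p = 0.00931 from edgeR). Exons of *Gtf2ird2* on the opposite strand overlap *Ncf1*, and 9.84% of the stretches of 31 bases in *Ncf1* transcripts also occur in transcripts of other genes. *Gtf2ird2* was read at 22.3 ± 2.85 and 27.1 ± 2.55 CPM (log2 fold change 0.28, adjusted p = 0.134 from edgeR), so its own difference was small beside that of *Ncf1*, and how its reads were counted is not given in the sources used here.

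*Ncf4* (ENSMUSG00000071715, chromosome 15, 78244801 to 78262580) encodes p40phox, which binds the lipid PI3P on phagosomes. It was read 1448, 1338 and 1488 times in WT cells and 1037, 796 and 665 times in VC cells. The WT libraries were nearly alike, and each VC library was clearly under them. The level fell from 91.6 ± 2.1 to 49 ± 11.1 CPM (SD, n = 3), a 1.87-fold decrease (log2 fold change -0.90 with a standard error of 0.15, 95% interval -1.26 to -0.55, adjusted p = 0.00265 from edgeR).

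*Rac1* (ENSMUSG00000001847, chromosome 5, 143503634 to 143528036) encodes the RAC GTPase found in nearly all cells. It had 6868, 6192 and 7497 counts in WT cells and 5477, 5691 and 5371 counts in VC cells. The groups lay well apart for their narrow spread. The level fell from 440 ± 17.6 to 325 ± 6.34 CPM (SD, n = 3), a 1.35-fold decrease (log2 fold change -0.44 with a standard error of 0.081, adjusted p = 0.00386 from edgeR). *Daglb*, on the opposite strand, overlaps its exons, and 51.3% of the stretches of 31 bases in *Rac1* transcripts also occur in transcripts of other genes, nearly all of them in *Daglb*. *Daglb* was read at 20.7 ± 1.08 and 24.8 ± 0.224 CPM, with far fewer reads than *Rac1*, and its difference had the other sign (log2 fold change 0.26, adjusted p = 0.0831 from edgeR).

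*Rac2* (ENSMUSG00000033220, chromosome 15, 78559167 to 78572783) encodes the RAC GTPase of blood cells, the main form in the neutrophil oxidase of mice. It was read 14828, 12776 and 14170 times in WT cells and 13390, 12747 and 12813 times in VC cells. In CPM, which are TMM-scaled, the groups did not overlap, but the nearest libraries were only 1.08-fold apart. The level was 896 ± 58.2 in WT and 765 ± 24.1 CPM in VC cells (SD, n = 3). The test did not call this difference (log2 fold change -0.23, 95% interval -0.45 to -0.0065, adjusted p = 0.0879 from edgeR), and its interval leaves room for a decrease like that of *Rac1*. *Rac3*, the third paralog, was at 2.21 ± 0.135 and 2.53 ± 0.414 CPM and was not called either (adjusted p = 0.578 from edgeR). The summed level of the 3 RAC genes was 1338 ± 64.3 and 1092 ± 21.8 CPM, a log2 difference of -0.29 (exact 2-sided permutation p = 0.1, the smallest that 3 against 3 libraries allow).

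**Figure D2:**
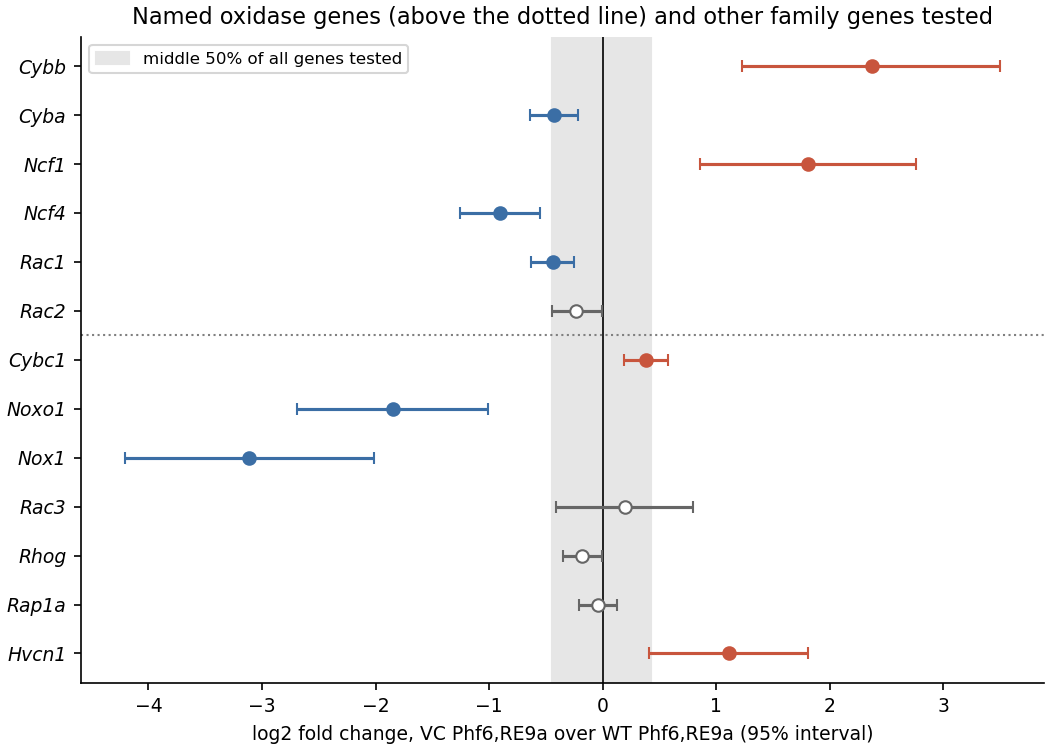
Log2 fold change (x axis, *VC Phf6,RE9a* over *WT Phf6,RE9a*) with its 95% interval for the 6 genes, above the dotted line, and for 7 other oxidase genes that were tested, below it. Red marks genes called higher, blue genes called lower, and open grey genes not called, and the grey band holds the middle 50% of all genes tested, from -0.448 to 0.425.

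Per unit of length the 6 genes differed widely in level. In FPKM (reads scaled to gene length and an adjusted library size), *Rac2* stood first in every library, at 287 ± 20.3 in WT and 243 ± 7.24 in VC cells. *Cyba* came next at 148 ± 12.2 and 109 ± 7.35 FPKM, then *Rac1* at 97.2 ± 3.95 and 71.3 ± 1.79 FPKM, and *Ncf4* at 45.1 ± 1.29 and 24 ± 5.45 FPKM. This order was the same in all 6 libraries. *Ncf1* and *Cybb* were last, at 3.06 ± 1.18 and 2.1 ± 1.07 FPKM in WT cells and at 10.7 ± 4.7 and 10.8 ± 5.73 FPKM in VC cells. Those neighbours changed places in VC replicate 11 and did not differ beyond their spread. From highest to lowest the 6 genes spanned 246-, 160- and 82.6-fold in the WT libraries and 17.3-, 21.1- and 49-fold in the VC libraries, so the levels lay closer together in every VC library than in any WT library.

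Ratios between genes within a library do not depend on the scaling between libraries. The FPKM of *Cyba* was 127, 78.8 and 44.5 times that of *Cybb* in WT cells and 6.74, 10.3 and 20.6 times in VC cells. The ranges did not overlap, and the mean log2 ratio was lower by 2.76 in VC cells, or 6.78-fold. For *Ncf4* over *Ncf1*, a ratio chosen after the values were seen, the values were 26.5, 13.2 and 10.9 against 2.05, 1.88 and 3.51, a 6.55-fold decrease. *Ncf1* over *Cybb* was 1.39, 1.96 and 1.23 against 0.891, 1.08 and 1.12. These ranges did not overlap either, and *Ncf1* rose less than *Cybb* (log2 difference -0.55). Without WT replicate 2 that difference was -0.35. *Rac2* over *Rac1* was 3.13, 2.99 and 2.74 against 3.54, 3.25 and 3.46, a log2 difference of 0.21. Each of these 4 differences had the same exact 2-sided permutation p of 0.1, which is the smallest p that this design can give.

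**Figure D3:**
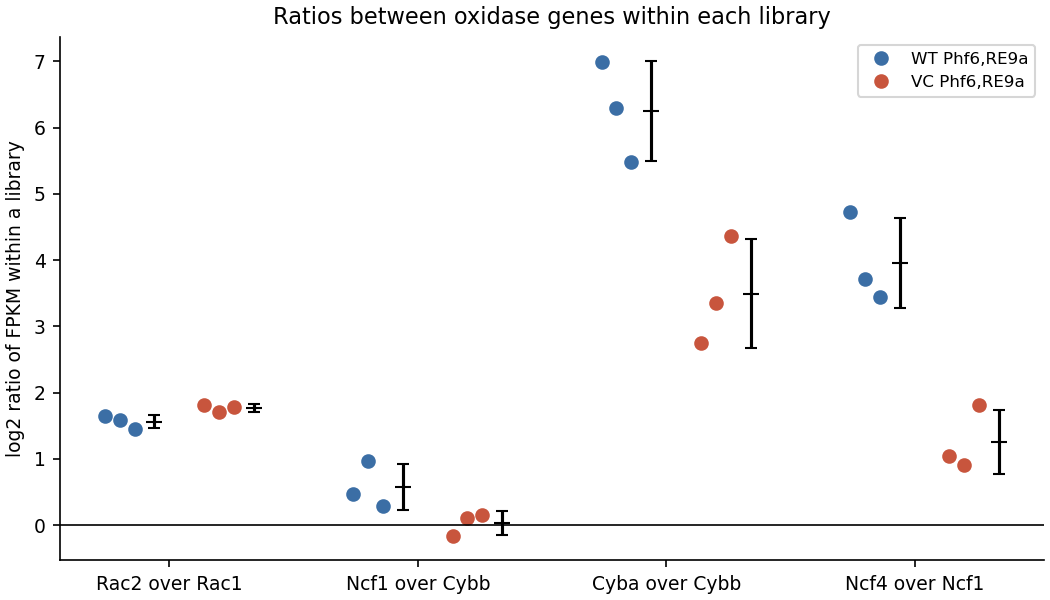
Log2 ratio of FPKM between pairs of oxidase genes within each library (y axis), with 3 *WT Phf6,RE9a* libraries in blue, 3 *VC Phf6,RE9a* libraries in red and black bars for the mean ± SD. The ratios with *Cybb* or *Ncf1* as denominator against *Cyba* or *Ncf4* drop by 2.76 and 2.71, while *Rac2* over *Rac1* rises by 0.21.

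*Cybb* and *Ncf1* were ordered across the libraries as granulocyte markers were, except that WT replicates 1 and 2 changed places. The 11 markers (*Ltf*, *Camp*, *Ngp*, *Lcn2*, *Mmp8*, *Mmp9*, *S100a8*, *S100a9*, *Cxcr2*, *Ly6g* and *Csf3r*) summed to 197, 163 and 500 CPM in WT cells and to 3820, 2471 and 1005 CPM in VC cells. All 11 were called higher, and their log2 fold changes ran from 2.48 to 3.57 (median 3.2). Replicate 3 was the highest WT library and replicate 13 the lowest VC library on this sum, as they were for *Cybb* and *Ncf1*. The markers that define neutrophils were not at 0 in WT cells, although *Ly6g* and *Cxcr2* were low (0.339 to 0.908 and 0.95 to 2.72 CPM).

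Set against this sum, *Cybb* came to 3.72%, 6.19% and 3.89% of it in WT cells and to 2.52%, 2.66% and 2.89% in VC cells. *Ncf1* came to 3.26%, 7.64% and 3% against 1.42%, 1.81% and 2.03%. Both shares were lower in every VC library than in any WT library. This restates the fold changes, since each marker rose more (at least 2.48 on the log2 scale) than *Cybb* (2.37) or *Ncf1* (1.81). Between libraries of a group the *Cybb* share varied less in VC cells (2.52% to 2.89%) than in WT cells (3.72% to 6.19%). The *Ncf1* share ranged more widely in both groups (1.42% to 2.03% and 3% to 7.64%). In such bulk samples, more cells of a type and more RNA per cell cannot be told apart, and the part of maturing granulocytes in the increase of *Cybb* and *Ncf1* was not tested. *Cyba*, *Ncf4* and *Rac1* were lower in VC cells, where the sum was higher. This held between the groups but not within VC cells, where *Ncf4* (61.2, 46.4 and 39.5 CPM) followed the order of the sum. *Cyba* went from 31% to 87.3% of the sum in WT cells to 3.04% to 10.7% in VC cells. Most of that drop came from the sum, as *Cyba* itself fell only 1.35-fold.

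**Figure D4:**
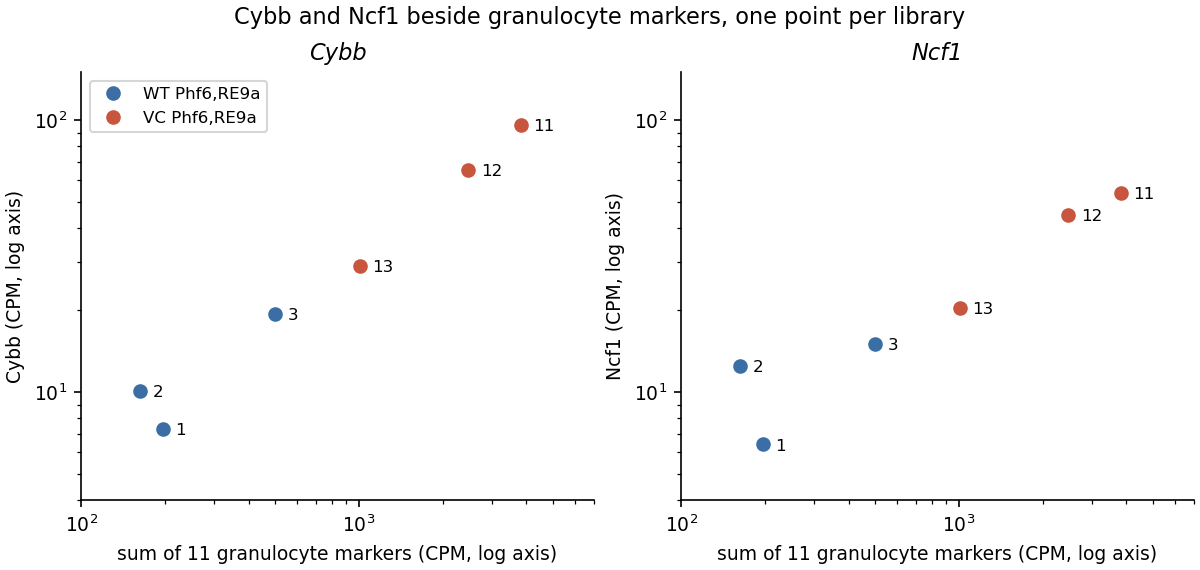
*Cybb* (left) and *Ncf1* (right) in CPM against the summed CPM of 11 granulocyte markers, both on log axes, with a point for each *WT Phf6,RE9a* (blue) and *VC Phf6,RE9a* (red) library, numbered by replicate. From the library at 500 CPM of markers to the one at 3820 CPM, both genes climb in the order of the marker sum.

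Monocytes and macrophages also use the oxidase. Their 10 markers summed to 163 to 181 CPM in WT cells and to 97.4 to 167 CPM in VC cells, with 1 called higher (*Ly6c2*, log2 fold change 2.28) and 2 called lower (*Cx3cr1* at -5.78 and *Ccr2* at -0.45). *Cx3cr1* made up much of the WT sum, at 60.2 to 93.2 CPM in WT and 0.475 to 2.01 CPM in VC cells. The other 7 were not called, and the median log2 fold change of the 10 was 0.51. *Csf1r* was at 5.84 to 10.8 and 7.78 to 17.3 CPM, and *C1qa*, *C1qb* and *C1qc* were each under 5 CPM in every library. B cells carry *Cybb* as well. Their 6 markers summed to at most 1.1 CPM in WT cells and to 26.3, 26.9 and 9.03 CPM in VC cells, where replicate 13 was again the lowest. All 4 B cell markers tested were higher, and their part in the *Cybb* increase was not tested. All 7 erythroid markers were higher, at 1438 to 2162 CPM against 4551 to 5124 CPM in sum.

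The 2 genes whose pattern over the 6 libraries was nearest to each of the 6 were found by the root mean square difference in log2 CPM centred on WT, over genes whose log2 CPM averaged at least 3. For *Cybb* these were the chemokine receptor *Cxcr4* (difference 0.117) and *Lsp1* (0.146), an actin-binding protein of leukocytes. For *Ncf1* they were *Mpeg1* (0.223), which encodes the pore-forming perforin-2 of phagocytes, and *Igsf6* (0.235). *Cxcr4* was read at 2.27, 2.58 and 6.23 CPM in WT cells and at 28.1, 18.6 and 9.51 CPM in VC cells. Its order of libraries was that of *Cybb*, which comes with its selection over the same libraries. The genes nearest to the other members were *Cenpf* (0.0367) and *Tmem11* (0.0466) for *Cyba*, *Zfp777* (0.0969) and *Kcnk5* (0.0973) for *Ncf4*, *Ccni* (0.0218) and *Vps26b* (0.0301) for *Rac1*, and *Rab2a* (0.0177) and *Mapkapk3* (0.0244) for *Rac2*.

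*Ncf4* and *Rac2* lie 297 kb apart on chromosome 15. Of the 6 tested genes between them, 3 were higher and 3 lower, among them *Csf2rb* and *Csf2rb2*, which encode beta chains of the IL-3 receptor. *Csf2rb2* was read at 2058, 2167 and 1485 CPM in WT cells and at 636, 621 and 660 CPM in VC cells (log2 fold change -1.57, adjusted p = 0.000236 from edgeR). *Csf2rb*, within 100 kb of *Ncf4*, fell too (log2 fold change -0.84, adjusted p = 0.00263 from edgeR). The sulfur enzyme gene *Mpst* rose between them (log2 fold change 1.43), so the interval as a whole did not move in 1 direction. These 3 were named after their values were seen. Within 100 kb of *Cybb* 0 other genes were tested. Of 7 tested around *Cyba*, 2 were higher and 2 lower, and of 4 around *Ncf1*, 0 were higher and 1 lower. Around *Ncf4* 1 of 3 was higher and 2 lower, around *Rac1* 1 of 5 higher and 1 lower, and around *Rac2* 1 of 4 higher and 2 lower. Over all genes tested, 21.5% were higher and 22.7% lower.

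Many other genes of the oxidase family were too low to test. Of 15 partners and relatives, 8 were tested, 2 were higher and 2 lower. The share called was 50%, against 44.2% of all genes tested. Their median log2 fold change was 0.078, against 0.0127 over all genes tested. *Cybc1*, whose product helps gp91phox to be made, rose from 94.5 ± 7.47 to 123 ± 0.816 CPM (SD, n = 3, log2 fold change 0.38, adjusted p = 0.00831 from edgeR). *Hvcn1*, the proton channel that balances the charge moved by the oxidase, rose from 4.32 ± 1.79 to 9.29 ± 1.01 CPM (log2 fold change 1.11, adjusted p = 0.0201 from edgeR). *Nox1*, a relative of *Cybb* best known from colon epithelium, had 44, 23 and 47 counts in WT cells and 6, 6 and 2 in VC cells. It was barely read in either group and called lower (log2 fold change -3.11, adjusted p = 0.00167 from edgeR), as was its organizer *Noxo1* with at most 25 counts (log2 fold change -1.85, adjusted p = 0.00503 from edgeR). *Nox3*, *Nox4* and *Duoxa1* had 0 counts in all libraries, which allows up to 0.203 CPM per library, for counting error only. *Noxa1*, *Duox1*, *Duox2* and *Duoxa2* were too low to be tested. *Rap1a* and *Rhog*, small GTPases linked to the oxidase, were not called (log2 fold changes -0.04 and -0.18).

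Most regulators of RAC that were called were lower. Of 25 exchange factors, GTPase-activating proteins and inhibitors, 22 were tested, 5 were higher and 13 lower (81.8% called, median log2 fold change -0.44). The exchange factor *Tiam1* fell from 171 ± 38.5 to 26.9 ± 3.87 CPM (SD, n = 3, log2 fold change -2.67, adjusted p = 6.26e-05 from edgeR). Its relative *Tiam2* fell from 60.6 ± 29 to 2.39 ± 0.521 CPM, and the RAC-inactivating *Chn2* from 50.2 ± 15 to 5.01 ± 2.45 CPM, with log2 fold changes of -4.66 and -3.32. *Arhgdia*, which holds RAC in the cytosol, had the most reads of the list and fell by 0.50 on the log2 scale. *Arhgdib*, its blood form, was not called (log2 fold change -0.15, adjusted p = 0.211 from edgeR). Thus factors that switch RAC on and factors that switch it off were both among the genes that fell.

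Of 16 RAC effectors, 13 were tested, 2 were higher and 6 lower. Called genes made up 61.5%, against 44.2% of all genes tested, and the median log2 fold change was -0.24. The scaffold *Iqgap1* fell from 954 ± 64.5 to 549 ± 26.4 CPM (SD, n = 3, log2 fold change -0.80, adjusted p = 0.000633 from edgeR). *Coro1a*, an actin-binding protein that has been found with p40phox, was not called (log2 fold change -0.24, adjusted p = 0.112 from edgeR). In the WAVE complex, which links RAC to actin, *Abi2* rose from a low level (log2 fold change 2.65), and *Abi3* and *Cyfip2* fell (log2 fold changes -3.56 and -2.03). The other subunits tested moved less. *Wasf2*, *Nckap1l*, *Brk1* and *Cyfip1* were not called (log2 fold changes -0.04, -0.01, -0.00 and -0.22), and *Abi1* and *Nckap1* fell slightly (-0.28 and -0.36). These were named after their values were seen.

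Of 17 genes for kinases and lipid enzymes that act ahead of assembly, 16 were tested, 3 were higher and 7 lower. Here 62.5% were called, against 44.2% of all genes tested, and the median log2 fold change was -0.29. *Pik3r6*, a regulatory subunit of PI3K-gamma, fell from 73.5 ± 9.37 to 11 ± 2.24 CPM (SD, n = 3, log2 fold change -2.74, adjusted p = 4.7e-05 from edgeR). The immune receptor kinase *Syk* fell from 139 ± 58.9 to 28.4 ± 14.9 CPM (log2 fold change -2.29, adjusted p = 0.00643 from edgeR). *Akt1* and *Mapk14*, with the most reads of the list, were not called (log2 fold changes -0.17 and -0.22).

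Of 19 genes for enzymes that remove superoxide and hydrogen peroxide, 18 were tested, 8 were higher and 3 lower (61.1% called, median log2 fold change 0.41). *Gpx1*, the glutathione peroxidase that is abundant in blood cells, rose from 1064 ± 101 to 2785 ± 169 CPM (SD, n = 3, log2 fold change 1.39, adjusted p = 0.000141 from edgeR). *Prdx2*, a peroxiredoxin best known from red cells, rose from 220 ± 57.7 to 599 ± 6 CPM (log2 fold change 1.44), and *Prdx3*, the mitochondrial form, from 344 ± 45.9 to 504 ± 24.2 CPM (log2 fold change 0.55). *Glrx* rose from a low level (log2 fold change 2.28, adjusted p = 0.028 from edgeR). The erythroid markers given above moved the same way as *Gpx1* and *Prdx2* between the groups, and their part was not tested.

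Of 16 transcription factors known to act on oxidase genes, 14 were tested, 3 were higher and 4 lower. With 50% called, the list was near the 44.2% of all genes tested, and its median log2 fold change was -0.29. *Spi1* (PU.1), which drives *Cybb* and *Ncf1* in phagocytes, was at 82.4 ± 10.4 and 94.9 ± 10.2 CPM and was not called; it was named after its values were seen (log2 fold change 0.20, adjusted p = 0.207 from edgeR). *Cebpe*, needed for late granulocyte maturation, rose from 0.709 ± 0.511 to 6.94 ± 2.8 CPM (SD, n = 3, log2 fold change 3.26, adjusted p = 0.00263 from edgeR). *Gfi1*, a repressor active in granulocyte precursors, fell from 42.4 ± 13.4 to 3.78 ± 1.27 CPM (log2 fold change -3.48, adjusted p = 0.000194 from edgeR). *Cebpa* rose from 1.49 ± 0.772 to 5.79 ± 2.26 CPM (log2 fold change 1.94). *Jun* and *Runx1*, with the most reads of the list, were not called (log2 fold changes -0.67 and -0.27).

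**Figure D5:**
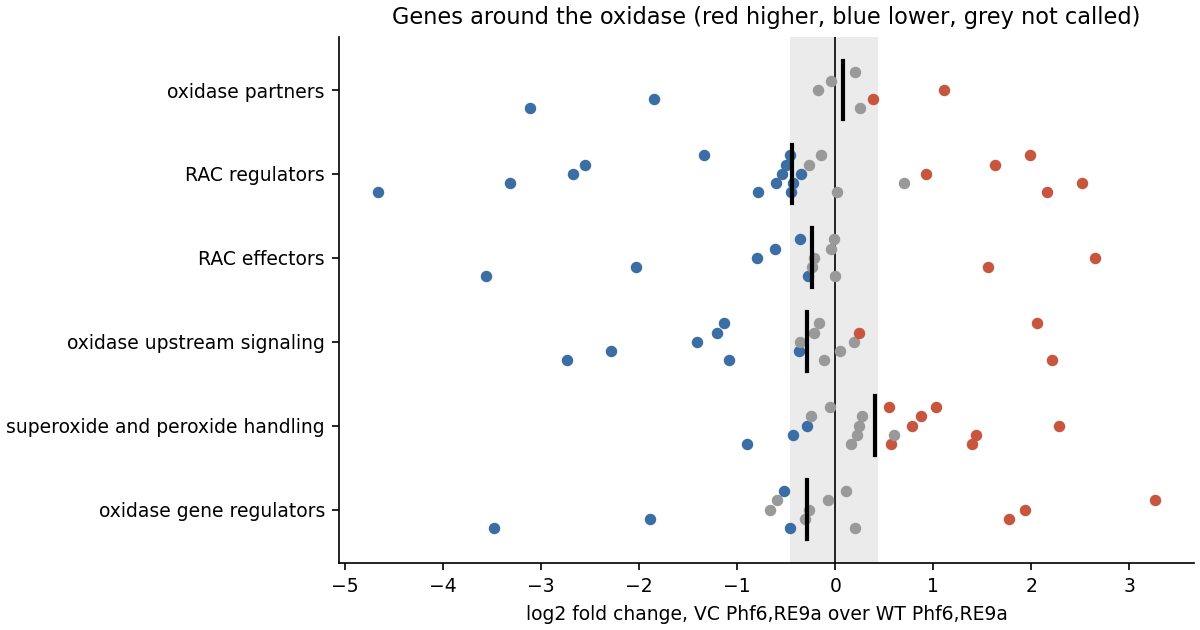
Log2 fold change (x axis, *VC Phf6,RE9a* over *WT Phf6,RE9a*) of each tested gene in 6 lists around the oxidase, with red for higher, blue for lower and grey for not called, a black bar at each median and a grey band from -0.448 to 0.425 for the middle 50% of all genes. The RAC regulators have the lowest median (-0.44) and the superoxide and peroxide genes the highest (0.41).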

How the data were processed

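Gene-level RNA-sequencing data of 6 libraries were used. Raw counts of reads for each Ensembl gene and FPKM values were deposited by the authors. For every gene with enough counts, the FPKM could be recomputed from the counts, the deposited gene length and 1 library size per library. That size was 0.916 to 1.07 times the total count, near the TMM factors, so the FPKM are not scaled to plain totals. The submitters' processing notes name Bowtie 0.12.0 and mm8 without a role, but 98.33% of the gene identifiers found in GENCODE M21 matched it in both start and end, which places the coordinates on GRCm38. The counting tool and its strand setting are not given in the sources used here. Columns of the authors' own comparison hold fold changes and p-values and were not used.

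In R 4.3.3, edgeR 4.0.16 (filterByExpr, TMM, quasi-likelihood test, Benjamini-Hochberg adjustment over all 14169 genes tested, threshold 0.05) compared the groups. CPM are TMM-scaled. Standard errors were derived from the F statistic. Alternatives were DESeq2 1.42.0, RLE scaling, no filter, a minimum of 10 counts per library, limma 3.58.1 on log2(FPKM + 1) and log2(FPKM + 0.1), and leaving out each library. Scripts were tested on simulated data.

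The 6 genes and all gene lists were chosen with earlier results of these data known. Named genes were the 6 genes and *Phf6*, in each list the 3 largest called changes, the 2 highest mean CPM and any oxidase subunit, for each of the 6 genes the 2 nearest patterns, and markers as sums. A few genes of the lists are counted in them but not reported here by name.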

Additional observations from a re-analysis of the deposited data

How the results depend on the processing

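All 6 oxidase genes kept their direction and their side of the threshold under the 12 alternatives, none of which scaled to plain library totals. Log2 fold changes ran from 1.85 to 2.86 for *Cybb*, from 1.48 to 2.12 for *Ncf1*, from -1.09 to -0.77 for *Ncf4*, from -0.49 to -0.38 for *Cyba*, from -0.48 to -0.42 for *Rac1* and from -0.27 to -0.18 for *Rac2*. The lowest adjusted p of *Rac2* was 0.064, with DESeq2. The lower ends for *Cybb* and *Ncf1* came from limma on log2(FPKM + 1), which understates changes of low genes. Of the oxidase partners, 2 instead of 4 were called when at least 10 counts were required in every library, since *Nox1* and *Noxo1* are not tested then. No paired analysis was possible because the groups share no replicate numbers. With 3 libraries a group, *Cybb* and *Ncf1* are the least precise of the 6. Within a group their highest library was 2.34- to 3.31-fold above the lowest, against at most 1.55-fold for the other 4.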
